A study of Mus musculus with 14 samples.

Results

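Of 27722 merged H3K27me3 regions in lineage-depleted mouse bone marrow, 2253 were moderate-sized regions at gene ends without H3K27ac. Each had an H3K27me3 island in all 4 libraries, lay on an autosome, was narrower than 30000 bp and met the 2 kb around an annotated end of a protein-coding gene. None met an island of the 4 H3K27ac libraries or of the IgG control library, so the regions were chosen by the measured islands of these marks. The islands are stretches of enriched reads that the authors deposited for each library, and overlapping H3K27me3 islands were merged into 1 region. Of 23096 autosomal regions, 6324 had an island in every library, 5849 of these were under the width limit, and 3383 of those met a gene end. Of those, 1094 met H3K27ac and 38 met IgG, a few of them both, and all of these were left out. The presence of H3K27me3 in all 4 libraries and the absence of H3K27ac were therefore fixed by the choice and are not findings, and a region that was marked in 1 genotype alone could not enter. At the width limit, the 3 regions at Cyth4, Nkain1 and Lrrn2 were 29800 bp wide and were kept. 5 regions of 30000 bp, among them those at Pdyn, Mpped1 and Obi1 with Pou4f1, were left out.

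The cells were Lin- bone marrow progenitors, labelled HSPCs, of C57BL/6 mice. The labels give 2 genotypes, UTX WT and UTX KO (Utx +/+ and Utx-/-), and name no treatment, age, sex, Cre driver or deletion time. H3K27me3 and H3K27ac had 2 WT and 2 KO libraries each, and UTX and the IgG control were precipitated from WT cells only, with 2 libraries and 1 library. The IgG control is titled as one of a BCOR precipitation, and the IgG titled for UTX was not used. The titles of the 2 UTX libraries differ by more than a replicate number. The labels do not say whether numbered libraries came from separate mice, so p-values measure the spread between libraries, which may be technical. The 4 H3K27me3 libraries held 2347442 to 2743508 reads in islands, and the depth outside islands is unknown. An end of each of the 12 progenitor markers checked, Kit, Cd34 and Runx1 among them, carried H3K27ac in all 4 libraries, and none lay at these regions. The choice, which left out regions with H3K27ac, partly set that absence. 4 of the 12, Cebpa, Flt3, Gata2 and Meis1, also met H3K27me3 in all 4 libraries. H3K27ac was likewise carried in all 4 libraries by an end of 4 of 5 myeloid, 3 of 4 erythroid and 2 of 5 B cell markers. Of 5 T cell markers none was acetylated in all 4 libraries, and Cd3e lay at 1 of the regions. Of 5 stromal or endothelial markers Pecam1 was acetylated, and Lepr lay at 1 of the regions. None of 4 neural markers was acetylated in all 4 libraries, and Neurod1 lay at 1 of the regions. A part of other cells in the signal was not tested. In bulk chromatin, a mark in fewer cells and less mark per cell cannot be told apart.

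H3K27me3 is trimethylation of lysine 27 of histone H3, laid down by the Polycomb repressive complex PRC2 and found at silent genes, many of them regulators of embryonic development. UTX, the product of Kdm6a, is a demethylase that can remove this mark, and it is also a subunit of the MLL3 and MLL4 complexes that work at enhancers. Acetylation of the same lysine, H3K27ac, marks active promoters and enhancers, and 1 histone tail cannot carry both at that residue. In mammals PRC2 is found most often at CpG islands, stretches rich in the dinucleotide CG, where no activating factor is bound.

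The promoters of these regions ranged from rich to poor in CG. To show that range, 5 promoters are printed from regions named by their signal or change. They run from 250 bases before to 50 after the gene start, 5′ to 3′, from RefSeq on build GRCm38.p6, with each CG in capitals. Foxc1 and Twist1 encode developmental transcription factors, Dhh a Hedgehog ligand, Lhb a pituitary hormone subunit and Aspg an asparaginase.
Foxc1 (chr13:31806396-31806695, plus strand): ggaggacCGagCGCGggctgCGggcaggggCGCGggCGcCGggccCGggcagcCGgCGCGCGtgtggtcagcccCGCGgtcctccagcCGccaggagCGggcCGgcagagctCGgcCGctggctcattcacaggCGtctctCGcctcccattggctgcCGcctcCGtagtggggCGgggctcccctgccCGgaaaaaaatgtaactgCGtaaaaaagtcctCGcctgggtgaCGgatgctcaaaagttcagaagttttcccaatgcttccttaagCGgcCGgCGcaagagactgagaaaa
Twist1 (chr12:33957421-33957720, plus strand): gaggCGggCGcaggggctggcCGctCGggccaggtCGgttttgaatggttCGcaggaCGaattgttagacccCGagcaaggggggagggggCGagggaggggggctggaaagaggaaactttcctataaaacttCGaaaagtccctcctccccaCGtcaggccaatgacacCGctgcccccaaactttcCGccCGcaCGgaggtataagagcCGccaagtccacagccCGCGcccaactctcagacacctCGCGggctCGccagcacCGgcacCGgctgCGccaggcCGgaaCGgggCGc
Dhh (chr15:98898491-98898790, minus strand): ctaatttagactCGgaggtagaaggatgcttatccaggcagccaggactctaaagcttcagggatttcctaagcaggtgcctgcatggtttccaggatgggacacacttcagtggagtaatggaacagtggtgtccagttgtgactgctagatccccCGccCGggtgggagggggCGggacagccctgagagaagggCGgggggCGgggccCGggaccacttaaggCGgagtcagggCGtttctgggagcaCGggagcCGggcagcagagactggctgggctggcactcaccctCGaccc
Lhb (chr7:45420696-45420995, plus strand): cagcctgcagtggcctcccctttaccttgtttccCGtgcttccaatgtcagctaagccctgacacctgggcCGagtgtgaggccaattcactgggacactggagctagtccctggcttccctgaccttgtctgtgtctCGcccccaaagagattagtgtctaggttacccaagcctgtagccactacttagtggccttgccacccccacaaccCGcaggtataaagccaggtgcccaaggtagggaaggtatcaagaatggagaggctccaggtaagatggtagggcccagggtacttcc
Aspg (chr12:112106433-112106732, plus strand): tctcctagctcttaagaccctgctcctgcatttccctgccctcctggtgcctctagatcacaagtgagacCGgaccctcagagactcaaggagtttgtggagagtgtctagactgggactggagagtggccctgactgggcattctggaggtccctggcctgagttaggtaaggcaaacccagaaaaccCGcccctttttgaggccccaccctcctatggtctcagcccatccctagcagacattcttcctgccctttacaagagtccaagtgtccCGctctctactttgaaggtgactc
The CpG ratio, observed CG over that predicted from the C and G content, was 0.94 at Foxc1 with 32 CG and 0.83 at Twist1 with 27. It was 0.44 at Dhh with 12 CG, 0.17 at Lhb with 4 and 0.13 at Aspg with 3. The region of Dhh and Lmbr1l and that of Kcna7, Lhb, Ntf5 and Ruvbl2 were among the 10 with most H3K27me3 reads per kb. These regions, described further on, were 12200 and 18000 bp wide. Their CG content outside the promoters was not examined, so the promoters of Dhh and Lhb do not show a dense mark on DNA poor in CG.

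35 microRNA hairpins of the RefSeq table lay inside 24 of the 2253 regions (1.07%). The share was 1.09% of regions that met H3K27ac and 5.05% of H3K27me3 domains of 30000 bp or more. Mature microRNAs silence messages that pair with their seed, bases 2 to 8, printed here in capitals. These microRNAs were picked for shared seeds after the values were known. The first set comes from the region at Btg4 and Hoatz, which holds the miR-34b and miR-34c hairpins, and from that at Cdc20b and Gpx8, which holds miR-449a and miR-449c.
mmu-miR-34b-5p (chr9:51103610-51103632, minus strand): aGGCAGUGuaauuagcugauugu
mmu-miR-449a-5p (chr13:113037549-113037570, plus strand): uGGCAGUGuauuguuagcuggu
mmu-miR-449c-5p (chr13:113036008-113036028, plus strand): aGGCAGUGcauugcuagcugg
mmu-miR-34b-3p (chr9:51103574-51103595, minus strand): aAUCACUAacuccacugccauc
mmu-miR-34c-3p (chr9:51103044-51103065, minus strand): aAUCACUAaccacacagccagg
miR-34b-5p, miR-449a-5p and miR-449c-5p thus shared 1 seed across 2 regions, and the 3-prime arms of miR-34b and miR-34c shared another. The second set comes from the miR-290 to miR-295 cluster, known from embryonic stem cells. 8 of its hairpins lay in 1 region of 5200 bp at Nlrp12.
mmu-miR-290a-5p (chr7:3218639-3218660, plus strand): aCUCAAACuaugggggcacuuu
mmu-miR-292a-5p (chr7:3219200-3219221, plus strand): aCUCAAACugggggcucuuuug
mmu-miR-293-5p (chr7:3220356-3220377, plus strand): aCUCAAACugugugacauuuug
mmu-miR-294-3p (chr7:3220691-3220712, plus strand): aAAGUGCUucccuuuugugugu
mmu-miR-295-3p (chr7:3220815-3220837, plus strand): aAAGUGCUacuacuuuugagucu
Here 3 mature sequences shared the seed CUCAAAC and 2 shared AAGUGCU. By the choice of regions, the microRNA regions carried H3K27me3 in both genotypes. At Btg4 and Hoatz the normalised counts (CPM, each region's reads over those of all tested regions after TMM scaling) were 121 and 204 in WT and 231 and 171 in KO. At Cdc20b and Gpx8 they were 241 and 321 in WT and 343 and 326 in KO, and at Nlrp12 they were 30.9 and 45.0 in WT and 60.9 and 52.3 in KO. Both KO libraries lay above both WT libraries at the regions of the miR-449 and miR-290 families, as at 19.6% of all tested regions. The groups overlapped at that of the miR-34 family. No difference at these regions passed edgeR's quasi-likelihood test. The Benjamini-Hochberg adjusted p was 0.821 for miR-34, 0.783 for miR-449 and 0.779 for miR-290. Of the other microRNA regions, some had both KO libraries above both WT libraries and some below, beside 18.8% of all tested regions below. Those at Aspg, Crtac1 and Rtl1 were lower, with log2 fold changes of −1.53, −1.16 and −0.95 and edgeR adjusted p of 0.53, 0.414 and 0.608.

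Strand was known for 17492 of 21887 genes. 1544 of the 2253 regions (68.5%) met a gene start, 171 met gene finishes alone, and 538 met no known start but a gene of unknown strand. 1831 regions lay at 1 gene, 359 at 2 and 63 at 3 or more. The regions had a median width of 11000 bp, with quartiles of 7800 and 16000 bp and a range of 800 to 29800 bp. At 1358 regions with a start of 1 gene inside, the share covered by H3K27me3 islands is a description, since the choice of regions of limited width with a start inside set most of its shape. It was highest 100 to 300 bp downstream of the start, at 97.6% and 96.8% in WT and 94.4% and 97.3% in KO. It was higher downstream than upstream at equal distance. At 4900 bp the libraries of WT had 34.4% and 26.3% upstream and 46.7% and 37.1% downstream. Those of KO had 23.2% and 28.3% upstream and 32.8% and 41.5% downstream. KO library 1 lay lowest at each of these distances, and KO library 2 lay between the WT libraries at 4900 bp.

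**Figure D1:**
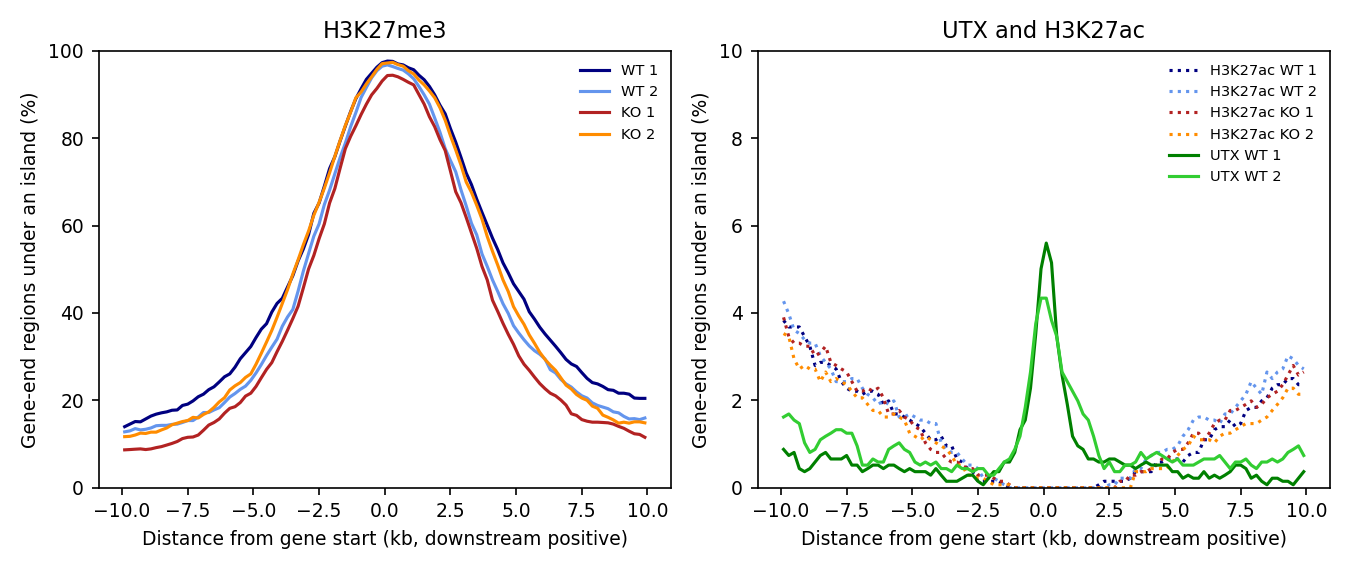
Share of 1358 H3K27me3 gene-end regions covered by an island, in percent, against distance from the gene start in kb. Left, the 4 H3K27me3 libraries, which peak between 94.4% and 97.6% just downstream of the start. Right, on a smaller axis, the 2 UTX libraries, which peak at 5.6% and 4.34%, and the 4 H3K27ac libraries, which are at 0 at the start by the choice of regions.

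2632 genes, 12.7% of 20665 autosomal protein-coding genes, had an end at these regions. 1640 had their start there, and 356 of known strand had only their finish there. The start window of 201 of those 356 (56.5%) met H3K27ac in all 4 libraries, beside 49.7% of all genes of known strand and 3.05% of the 1640, whose starts the choice of regions had kept clear. The share of acetylated starts among genes with only their finish at these regions was thus near that of all genes of known strand. A region at the finish of such a gene can also meet the start of another gene. Counted by region, the 171 that met gene finishes alone had a median of 21.1 reads per covered kb, against 29.8 at those that met a start. The finish at Amotl1, a cell junction protein, is an example with 13.4 to 20.4 reads per kb in the 4 libraries.

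The regions held a larger share of developmental genes than of all genes and a smaller share of blood genes. These shares describe 14 gene lists and were not tested. Among transcription factors, 52.9% of 51 basic helix-loop-helix genes had an end at them. The share was 44.1% of 68 zinc finger genes of families such as Zic, Gli and Sall, 29.3% of 75 Fox, Sox and T-box genes and 23.3% of 163 homeobox and paired-box genes. The homeobox genes were instead found in the domains of 30000 bp or more, which held 70.6% of them, against 27.5% of helix-loop-helix genes. Among secreted signals and their receptors, the regions held 60.4% of 48 Wnt pathway genes, 49.1% of 55 BMP and TGF-beta genes and 49.0% of 49 FGF, Hedgehog and Notch genes. The broad domains held 20.8% of the Wnt genes, 0 of the BMP and TGF-beta genes and 2.04% of the FGF, Hedgehog and Notch genes, beside 3.01% of all genes. In H3K27me3 regions that met H3K27ac, the shares were 16.7%, 18.2% and 26.5% in the same order, beside 7.15% of all genes. Zinc finger genes stood at 19.1% there and axon guidance genes at 24.7%. Homeobox, helix-loop-helix and cadherin genes stood below all genes there, at 6.13%, 3.92% and 6.6%. For genes of nerve and tissue structure, the share at the gene-end regions was 45.7% of 162 neurotransmitter genes, 44.2% of 165 ion channel genes, 42.1% of 140 matrix genes, 38.7% of 93 axon guidance genes and 26.4% of 106 cadherin genes. Of 150 blood and immune genes, 13.3% had an end at regions that met H3K27ac, above the 7.15% of all genes there. The gene-end regions without H3K27ac had 14 of them (9.33%), which is below the 12.7% of all genes. Among them were Ccr4, Cd3e, Id4, Il17b, Il22ra1, Il24, Il27ra, Il31, Kdr, Tbx21, Tnfrsf11a, Tnfrsf12a and Tnfrsf25. Of 15 cell cycle inhibitor genes 1 was found, Cdkn1c, an imprinted gene.

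**Figure D2:**
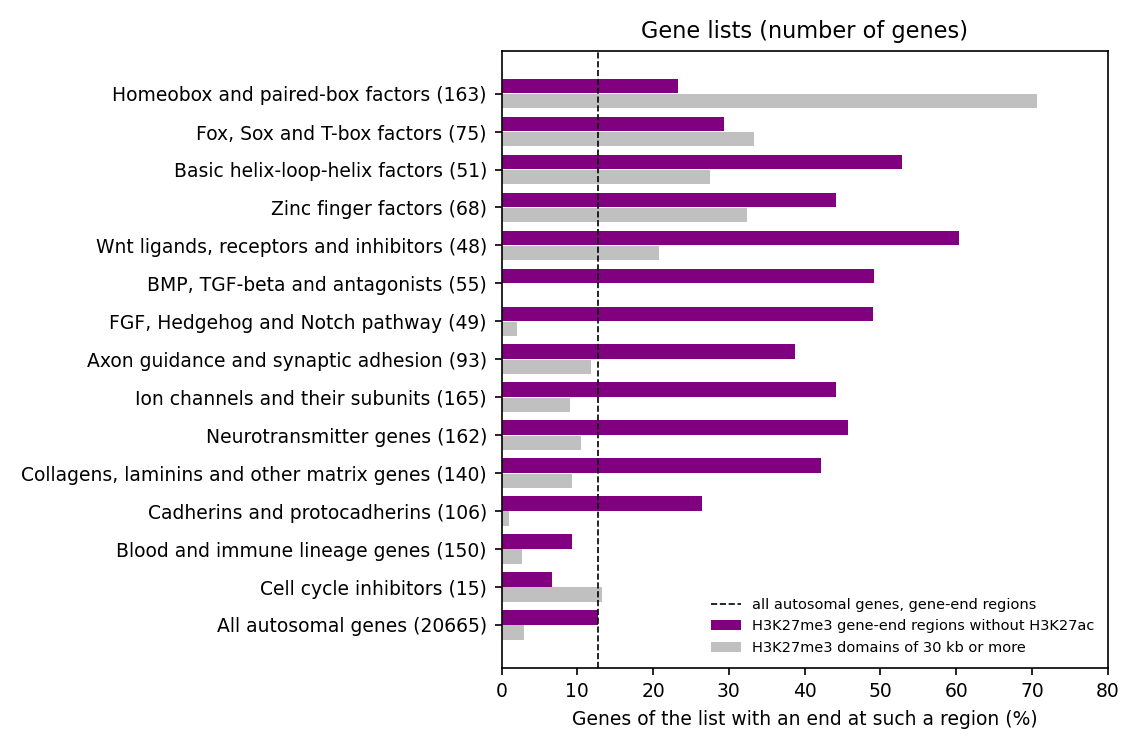
Share of the genes of each list, in percent, with an end at an H3K27me3 gene-end region without H3K27ac (purple) or at an H3K27me3 domain of 30 kb or more (grey); the number of genes stands in brackets. The dashed line is the 12.7% of all autosomal genes, and the lists from helix-loop-helix to matrix genes stand between 38.7% and 60.4% while homeobox genes stand at 70.6% in the broad domains.

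Promoters inside these regions were rich in G and C but less rich in CG than acetylated ones. The median GC content was 62.0% over 1681 promoter windows, 61.3% over 10412 windows acetylated in all 4 libraries and 56.3% over all 21263 windows. The median CpG ratio was 0.62 in the regions, 0.79 in acetylated windows and 0.57 in all windows. A ratio of 0.6 or more was found in 53.3%, 76.1% and 47.7% of windows in that order. CG content also went with the strength of the mark among the regions. The 831 regions with a start of ratio 0.6 or more had a median of 32.0 reads per kb (quartiles 27.3 and 36.7) and a width of 11800 bp. The 589 with lower ratios had 26.9 reads per kb (quartiles 22.1 and 32.5) and 10200 bp. The quartile ranges overlap, and the 833 without a start of the table inside had 27.3 reads per kb.

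**Figure D3:**
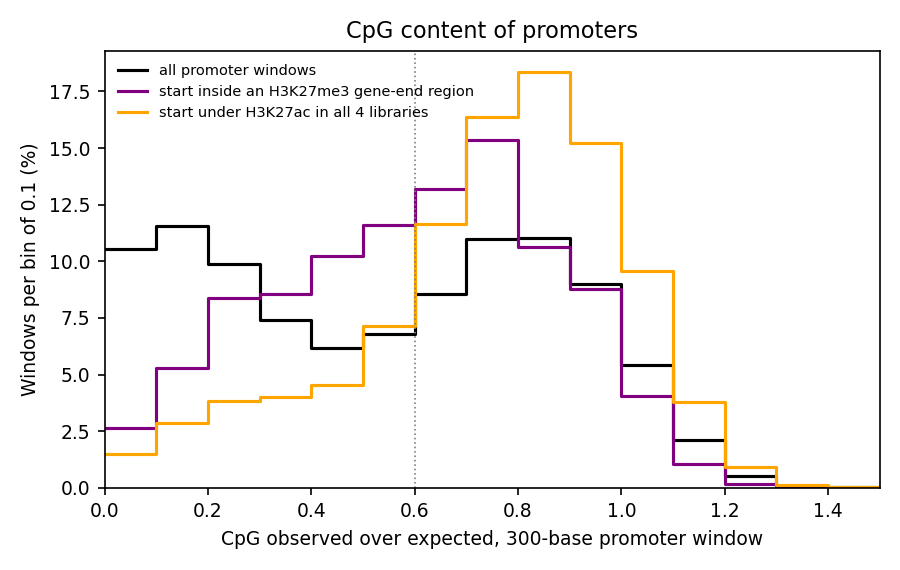
Distribution of the CpG ratio (observed over expected) of 300-base promoter windows, as percent of windows per bin of 0.1. Windows with a start inside the H3K27me3 gene-end regions (purple) lie between the acetylated windows (orange) and the low peak of all windows (black); the dotted line is the ratio of 0.6.

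5 short motifs were searched on both strands of the 300-base windows. None of the 5 contains another. CCGGAA, the core of many ETS factor sites, was found in 8.98% of the windows inside the regions, 18.7% of all windows and 31.3% of acetylated windows. This motif holds a CG, so windows were also compared at like GC content. At 60 to 70% GC it was in 10.6%, 29.2% and 36.0% in that order, and at 50 to 60% GC in 7.74%, 21.1% and 33.1%. Below 50% GC the regions had 6.21% and all windows 5.43%. Windows of like GC content still differed in CG. The median CpG ratio was 0.67, 0.77 and 0.82 at 60 to 70% GC and 0.41, 0.47 and 0.69 at 50 to 60%. The part of CG content in the motif shares was thus not separated. AGATAA, a form of the GATA factor site, was in 5.71% of windows in the regions, 9.65% of all and 5.88% of acetylated windows. CCAAT, the site of NF-Y, was in 30.5%, 38.2% and 38.2%. TATAAA, the TATA box, was in 8.69%, 12.6% and 6.02%, and CACGTG, an E-box, in 6.84%, 7.84% and 10.7%. A match is a run of letters and not a bound site.

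The signal of single regions varied widely, and 3 of the 10 regions with most reads per kb were very narrow. The median number of reads in a region was 224 and 212 in WT and 216 and 225 in KO. The most reads were at Tbx2 and Bcas3 (chr11:85821001-85849200). Tbx2 encodes a T-box repressor of limb and heart development. That region counted 1516 and 1998 reads for WT against 1430 and 1757 for KO, or 754, 1045, 738 and 859 CPM, with the genotypes overlapping. Its density per covered kb was 54.1 and 80.6 for WT against 63.3 and 77.1 for KO, so WT library 1 was lowest. Nxph4, which encodes a neurexin ligand and shares its region with Lrp1 and Shmt2, had 69.9 and 87.0 in WT and 64.8 and 62.7 in KO. Lhx3, a pituitary and motor neuron homeobox factor, had 53.7 and 69.8 in WT and 59.9 and 64.9 in KO. Dhh had 52.3 and 57.7 in WT and 71.6 and 66.4 in KO, with both KO libraries higher. That of Kcna7, a potassium channel, and Lhb had 52.9 and 66.2 in WT and 61.2 and 67.1 in KO. Barhl1, a neural homeobox factor, had 51.4 and 63.4 in WT and 63.9 and 57.7 in KO, and Cilp2, a cartilage protein, 54.9 and 73.8 in WT and 57.1 and 66.5 in KO. These 7 regions were 12200 to 28200 bp wide.

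3 of the 10 regions with most reads per kb were narrower than 2000 bp, as were only 7 of the 2253. The one at the finish of Wls, a carrier of Wnt ligands, was 1200 bp wide and had 428 and 143 reads per kb in WT and 602 and 178 in KO. Its covered length was 400, 1200, 400 and 1200 bp in the same order, so the libraries with the shorter island had the higher density. The other 2 lay at the predicted genes Gm29721 and Gm38702 and were 1800 and 800 bp wide. The Gm29721 region had 76.7 and 55.6 reads per kb in WT and 73.9 and 46.7 in KO. Reads that fit several places in the genome were not examined here.

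Loss of UTX was compared over 6771 H3K27me3 regions with an island in all 4 libraries, the question being whether the mark rose when its demethylase was absent. None of the 2253 gene-end regions passed edgeR's quasi-likelihood test in either direction, at an adjusted p of 0.05. The smallest adjusted p was 0.295. Over all 6771 regions 0.0% were called higher and 0.0148% lower in KO, the latter being 1 region that met H3K27ac. At an unadjusted p under 0.05 there were 120 of the gene-end regions (5.33%), beside 7.64% of all regions. Of them 47 were higher and 73 lower in KO, out of 2253. Of all 6771 tested regions 260 were higher (3.84%) and 257 lower (3.8%). The split between directions was not tested. DESeq2 called 2 gene-end regions higher and 1 lower, beside 0.236% and 0.251% of all regions. Both KO libraries lay above both WT libraries in 420 regions (18.6%) and below them in 446 (19.8%), beside 19.6% and 18.8% of all tested regions. The median log2 fold change of KO over WT was −0.017 and that of all tested regions −0.002. Without the TMM scaling the medians were 0.101 and 0.117, so the sign of the median rests on the scaling.

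The intervals limit how large a change could have gone unseen. The 95% interval of the fold change lay within 2-fold either way at 1336 gene-end regions (59.3%), beside 44.3% of all tested regions. It lay within 4-fold at 2196 (97.5%), beside 95.6%. The standard error had a median of 0.312 on the log2 scale. The fitted change was beyond 2-fold at 62 regions (2.75%), beside 4.49% of all tested regions. Scaling was relative to the reads of each library, so a change common to all regions would not be seen.

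**Figure D4:**
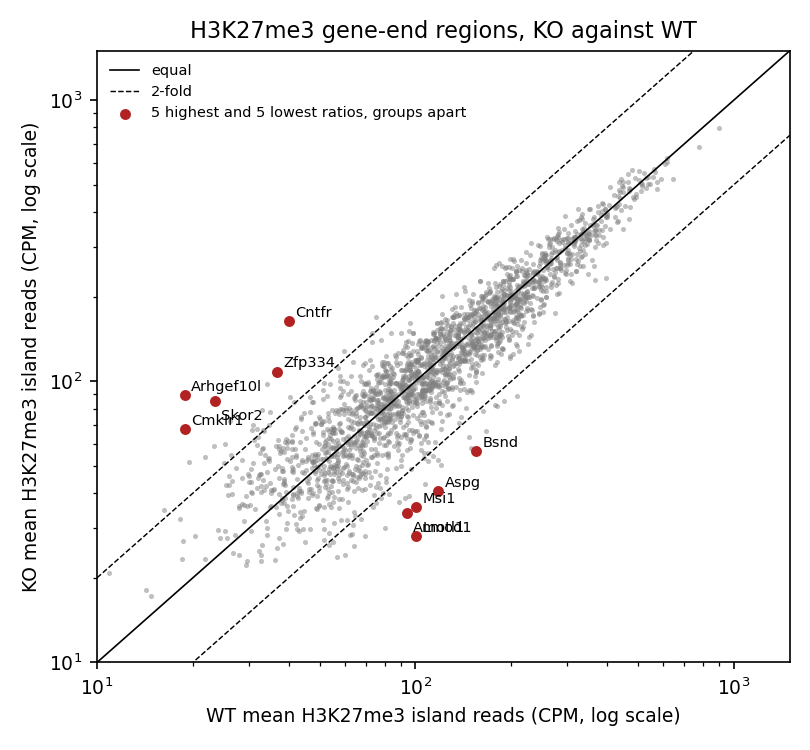
Mean H3K27me3 reads of the 2 KO libraries against those of the 2 WT libraries, in CPM on log axes, for 2253 gene-end regions (grey). The solid line is equality, the dashed lines are 2-fold, and the 10 named regions (red) have the highest and lowest ratios among regions whose genotypes do not overlap; none passed the edgeR test.

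Summed over whole libraries, no measure passed an exact test, which 2 against 2 libraries would not allow. The gene-end regions held 22.9% and 25.2% of all H3K27me3 island reads in WT and 25.5% and 25.8% in KO. Both KO libraries were higher, by 1.61 percentage points on average, and an exact permutation test, two-sided, gave p = 0.333, the smallest value it can reach here. The difference was 0.437 without WT library 1, 2.78 without WT library 2 and 0.125 with islands of at least 100 reads. The islands in them covered 22.7 and 19.7 Mb in WT and 18.1 and 20.9 Mb in KO (exact permutation p = 0.667). The number of islands per region was 1.22 and 1.31 in WT and 1.21 and 1.17 in KO (exact permutation p = 0.333). With islands of at least 100 reads alone, that last difference went from −0.077 to 0.000303 (exact permutation p = 1.0).

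The 40 regions named from the gene lists, up to 3 per list by CPM, held between −0.32 and 0.34 in log2 fold change, with standard errors of 0.15 to 0.26. The smallest edgeR adjusted p among them was 0.664. In 31 of them the genotypes overlapped, in 4 both KO libraries were higher and in 5 both were lower, beside 19.6% and 18.8% of all tested regions. Without WT library 2 the largest value in either direction was 0.57. No region of any list passed the test in either direction, and the list medians ran from −0.13 to 0.08 beside −0.002 for all regions.

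None of the transcription factor regions passed the test between genotypes. Foxc1, a forkhead factor of eye and mesoderm development, had 460 and 613 CPM in WT and 429 and 578 in KO. Msx1, a homeobox factor of tooth and limb, had 611 and 608 in WT and 546 and 636 in KO. Twist1, a helix-loop-helix factor of mesenchyme, had 369 and 527 in WT and 475 and 550 in KO. In all 3 the WT and KO values overlap. Olig3, a helix-loop-helix factor of the neural tube, was the highest of the 40 in log2 fold change, with 278 and 370 CPM in WT and 445 and 377 in KO. Its value was 0.34 with a standard error of 0.19 and an edgeR adjusted p of 0.704.

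Genes of signalling pathways did not pass it either. Shh, the Hedgehog ligand of limb and neural tube, had 433 and 509 CPM in WT and 469 and 499 in KO. Dll1, a Notch ligand, had 292 and 363 in WT and 352 and 397 in KO, and Nog, a secreted BMP inhibitor, had 362 and 360 in WT and 325 and 403 in KO. The genotypes overlap at each. Wnt7b, a Wnt ligand, had 569 and 580 CPM in WT and 462 and 507 in KO, both KO libraries lower, with a 95% interval of −0.57 to 0.08 on the log2 scale. Its covered length was 28000 and 24800 bp in WT and 15600 and 18000 bp in KO, while the reads per covered kb were 40.9 and 44.7 in WT and 57.4 and 57.7 in KO.

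Among matrix genes, 2 neighbouring regions at Ncan, which encodes the brain proteoglycan neurocan, were lower in both KO libraries. The first, shared with Hapln4 and Tm6sf2, had 476 and 465 CPM in WT and 397 and 356 in KO. It was the lowest of the 40 in log2 fold change, at −0.32 with a 95% interval of −0.66 to 0.02. The second had 348 and 402 CPM in WT and 311 and 312 in KO. Col2a1, the main collagen of cartilage, had 454 and 493 in WT and 420 and 415 in KO. These 3 had both KO libraries below both WT libraries, and their intervals include 0. Of 63 matrix regions 8 had an unadjusted p under 0.05, beside 7.64% of all tested regions, and none an adjusted one.

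Among blood genes, Tnfrsf25, a death receptor of T cells, shares the best marked region with Espn and Plekhg5, with 572 and 666 CPM in WT and 567 and 640 in KO. Id4, an inhibitor of helix-loop-helix factors, had 246 and 194 in WT and 214 and 223 in KO. Il27ra, a cytokine receptor chain, shares its region with Palm3 and had 123 and 186 in WT and 159 and 166 in KO. Cdkn1c had 171 and 241 in WT and 185 and 193 in KO. All 4 regions overlapped between genotypes.

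The regions with the largest differences in island reads are described here by the length and the density of their islands. Reads are the product of these 2, the regions were picked by their reads, and a caller keeps no stretch below its threshold, so the split between length and density is partly set by the choice and no test was made. Among the 26 regions with a log2 fold change above 1, the covered length was 1.67 to 4.83 times as long in KO, with a median of 2.22, and the reads per covered kb were 0.75 to 1.35 times those of WT. Among the 36 regions below −1, the covered length was 0.2 to 0.57 times that of WT, with a median of 0.37, and the density was 0.92 to 2.01 times. Over all 2253 regions the ratio of covered lengths had a median of 0.94 and that of densities 1.08. None of these 62 regions passed the edgeR test.

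Arhgef10l, which encodes a guanine nucleotide exchange factor, had the highest value. Its region (chr4:140655801-140664600) counted 40 and 34 reads for WT against 196 and 159 for KO, or 19.9, 17.8, 101 and 77.7 CPM. The covered length was 2000 and 1600 bp in WT and 8600 and 8800 bp in KO, and both KO libraries stand apart from WT in reads and length. The reads per kb were 20.0 and 21.2 in WT and 22.8 and 18.1 in KO and overlap. The log2 fold change was 2.24 with a standard error of 0.43, an edgeR adjusted p of 0.295 and a DESeq2 adjusted p of 0.0047. Fitted per covered kb, it was −0.03, where the median of all tested regions was 0.109.

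The region shared by Cntfr, the receptor of ciliary neurotrophic factor, with Dnaic1 and Enho (chr4:41630601-41656200) had 57.2 and 23.0 CPM in WT and 162 and 167 in KO. Its islands covered 6600 and 1600 bp in WT and 14200 and 20800 bp in KO. The nearest H3K27ac island lay 400 bp away. The log2 fold change was 2.03 with a standard error of 0.42, an edgeR adjusted p of 0.346 and a DESeq2 adjusted p of 0.00373, and −0.16 per covered kb. With scaling to total island reads in place of TMM, edgeR called this region (adjusted p = 0.0195) and that of Arhgef10l (adjusted p = 0.0335). Cmklr1, a chemerin receptor found on myeloid cells, had its finish at a region with 18.9 and 18.8 CPM in WT and 60.9 and 74.3 in KO (edgeR adjusted p = 0.359). Skor2, a transcriptional corepressor of cerebellar neurons, had 25.9 and 20.9 in WT and 48.5 and 121 in KO. Zfp334 and Zfp663 had 21.4 and 52.3 in WT and 103 and 114 in KO.

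On the other side, Lmod1, a leiomodin of smooth muscle, had the lowest value. Its region (chr1:135315801-135331400) counted 265 and 133 reads for WT against 35 and 78 for KO, or 132, 69.6, 18.1 and 38.1 CPM. The covered length was 13000 and 8200 bp in WT and 1200 and 5200 bp in KO, with KO library 1 shortest. The log2 fold change was −1.84 with a standard error of 0.50 and an edgeR adjusted p of 0.395. Bsnd, a chloride channel subunit of kidney and inner ear, had 173 and 138 CPM in WT and 41.8 and 71.4 in KO. It was the 1 gene-end region that DESeq2 called lower (adjusted p = 0.0435), at a log2 value of −1.46, while its edgeR adjusted p was 0.359.

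Aspg, printed above with 3 CG in its promoter, had 130 and 106 CPM in WT and 17.5 and 64.0 in KO. Its covered length was 11400 and 11600 bp in WT and 1000 and 3800 bp in KO, while its reads per kb were higher in both KO libraries, at 34.0 and 34.5 against 23.0 and 17.4. Msi1, an RNA-binding protein of neural stem cells, had 114 and 86.3 CPM in WT and 25.8 and 45.5 in KO. Amotl1 had 73.6 and 115 in WT and 27.4 and 40.6 in KO. KO library 1 was the lowest of the 4 libraries at each of Lmod1, Bsnd, Aspg, Msi1 and Amotl1. When the 10 regions with the largest differences were fitted per covered kb, none passed the test. Aspg was at 0.74, and the other values lay between −0.16 and 0.26.

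**Figure D5:**
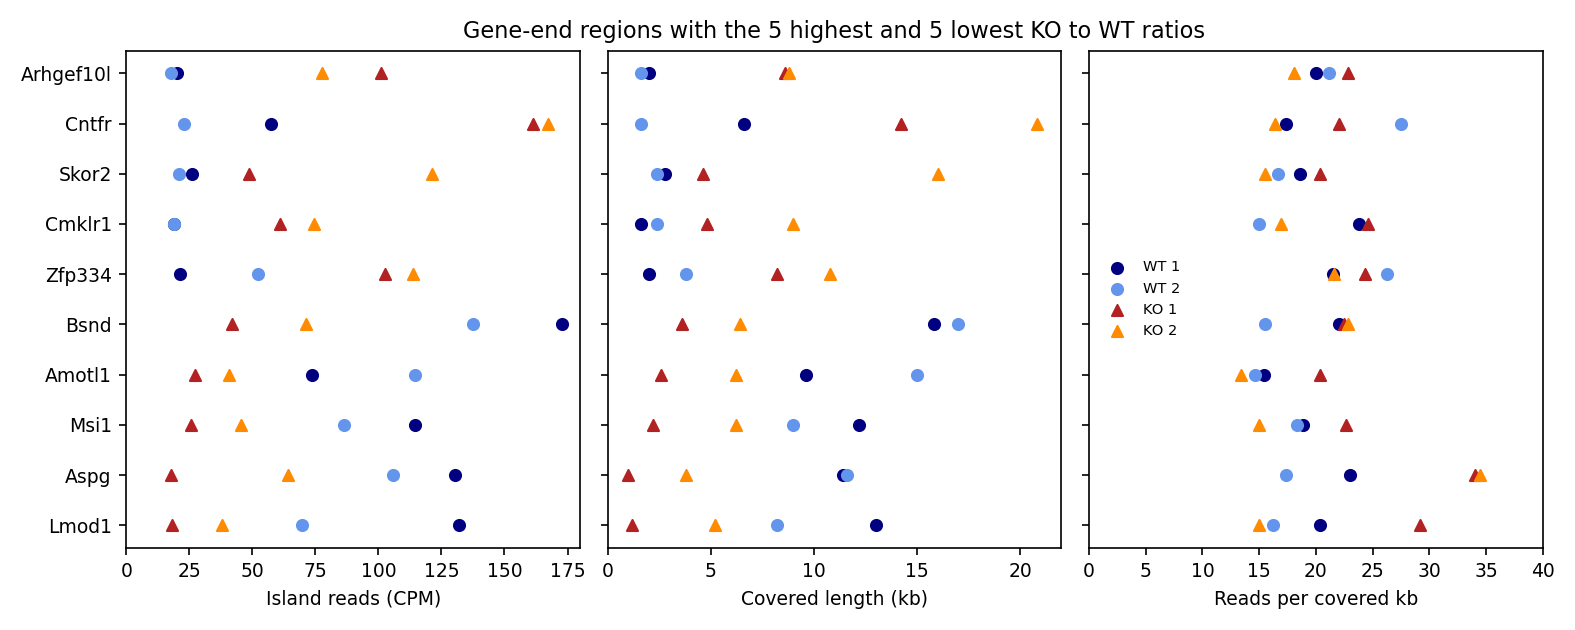
Values in each library of the 10 gene-end regions with the highest and lowest KO to WT ratios among those whose genotypes do not overlap, named by the first gene. From left to right, island reads in CPM, covered length in kb and reads per covered kb; WT (blue circles) and KO (red and orange triangles) separate in reads and length and mix in density, except at Aspg and Bsnd, where both KO libraries are denser.

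The 3 regions just under the width limit differed among themselves. Lrrn2, a neuronal leucine-rich repeat protein, was covered over 29800 and 29600 bp in WT and 12600 and 10800 bp in KO, with 400 and 396 CPM in WT and 259 and 209 in KO. Its reads per kb were 26.9 and 25.5 in WT and 39.8 and 39.6 in KO, higher in KO without overlap. The log2 fold change was −0.77 with a standard error of 0.18 and an edgeR adjusted p of 0.359. Nkain1, a neuronal sodium pump partner, was covered over 27400 and 22800 bp in WT and 10200 and 25000 bp in KO, so the lengths overlapped. Cyth4, a guanine nucleotide exchange factor of blood cells, was covered over 20200 and 18200 bp in WT and 16800 and 23600 bp in KO, with overlap and a log2 fold change of 0.14.

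The spread of the changes differed with CG content. The SD of the log2 fold change was 0.30 over regions with a start of CpG ratio 0.6 or more, 0.41 over those with a lower ratio and 0.44 over those without a start of the table inside. An unadjusted p under 0.05 was found at 2.65%, 6.28% and 7.32% in that order, beside 7.64% of all tested regions. The first also had more reads, with a median of 138 CPM against 95.9 and 98.6, and the part of read number in this was not tested.

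UTX was found at few of these regions, in libraries of 816567 and 1834418 reads in islands. 200 and 230 of the 2253 met an island of UTX library 1 and 2, and 63 (2.8%) met islands of both. The share that met both was 27.7% of regions under 30000 bp that met H3K27ac, 13.7% of the broad domains and 2.4% of distal regions without H3K27ac. Counting islands of either UTX library gave 367 regions, and UTX islands of at least 50 reads in both gave 5. The UTX islands that met the regions held 0.846% and 0.91% of the reads in UTX islands. Each such island was counted whole, also where it reached past the region. At the 1358 regions with a start of 1 gene inside, UTX cover was highest within 100 bp of the start, at 5.6% and 4.34%. It was 0.368% and 0.589% at 4900 bp upstream. Of the 63 regions that met UTX islands of both libraries, 40 met a gene start, beside 1504 of the 2190 others. The place of UTX in regions without a known start was not examined. Islands of both UTX libraries were met at 3.49% of regions with a CpG-rich start and at 0.849% of those with a CpG-poor start. The share was 3.48% of regions without a start of the table inside.

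The 63 regions with UTX had a median log2 fold change of −0.02, as had the 2190 others, and 4 of the 63 had an unadjusted p under 0.05, beside 116 of the others and 7.64% of all tested regions. An H3K27ac island lay within 10 kb of 42.9% of the 63 and of 29.8% of the others. With UTX islands counted whole, the most UTX reads were at the finish of Nmi, an interferon-induced protein, with 126 and 822 in the 2 UTX libraries. That region was 2800 bp wide and lay 2000 bp from an H3K27ac island, with 61.7 and 48.1 CPM of H3K27me3 for WT against 54.7 and 33.7 for KO. The region shared by Ccdc106, U2af2 and Zfp580 had 128 and 195 UTX reads, and 243 and 330 CPM of H3K27me3 for WT against 235 and 264 for KO. Anxa3, an annexin of neutrophils, had 49 and 240 UTX reads at a region of 3400 bp, and Sema5b, a semaphorin of axon guidance, 43 and 238. Scarf2, a scavenger receptor family member that shares its region with Klhl22, had 66 and 203 UTX reads. Its H3K27me3 was 559 and 728 CPM in WT and 484 and 567 in KO, the genotypes overlapping. No edgeR adjusted p among these 5 was below 0.733.

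The distance from the regions to the nearest H3K27ac island had a median of 26400 bp. 680 regions (30.2%) had one within 10 kb, and for 462 (20.5%) none lay within 100 kb. Of the genes named above, Msx1 stood 197200 bp, Twist1 241600 bp and Id4 235400 bp from H3K27ac, while Col2a1 and the region of Nxph4 stood 200 bp from it.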

How the data were processed

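ChIP-seq islands of 11 of the 14 samples were used; 3 (2 inputs and 1 IgG) were not used here. Per the submitters' processing notes, islands were called with SICER on mm10; the version, aligner, threshold and control are not given in the sources used here. The deposited files hold counts, whole reads per island, called by library, so a region outside islands has no count. Island widths were multiples of 200 bp. Reads outside islands, and thus total depth, are unknown.

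Islands were compared with 21887 protein-coding genes of RefSeq GRCm38.p6, the assembly of mm10, by at least 1 bp of overlap. Start and strand came from the RefSeq promoter table, which matched 17492 genes. Reads of all islands in a merged region were summed by library. The 6771 regions with islands in all 4 H3K27me3 libraries on chromosomes 1 to 19, X and Y were tested with edgeR 4.0.16 (TMM, quasi-likelihood, two-sided, Benjamini-Hochberg, threshold 0.05) in R 4.3.3, with DESeq2 1.42.0 as an alternative. Fold changes are fitted KO over WT with a standard error from the F statistic. The script was tested on simulated data. Single values per library had an exact permutation test.

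Named regions were the 5 largest differences per direction without overlap between genotypes (none having passed the test), the 10 with most reads per kb, up to 3 per list by CPM, the 5 with most UTX reads and those at the width limit. Other genes are list members or were chosen after their values were seen. The 14 lists were built from symbol patterns, and entries outside a family were dropped after the matches were seen. The regions and lists were chosen with earlier results of these data known. Alternatives covered scaling, filters, gene windows, overlap, island size, a replicate block and each library left out.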

Additional observations from a re-analysis of the deposited data

How the results depend on the processing

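The count of gene-end regions past the test was 0 in both directions under edgeR with a replicate block (0), with islands in at least 2 libraries, at least 50 reads per library, autosomes only, reads per covered kb, islands of at least 100 reads, and without any 1 library. It was 2 higher and 1 lower with DESeq2 and 2 higher with no TMM. Over all tested regions the calls were 16 higher and 17 lower with DESeq2, 9 higher with no TMM and 3 higher per covered kb. The 1 lower call became 0 with the replicate block, with islands in at least 2 libraries and with islands of at least 100 reads. Leaving out 1 library gave 0 to 1 higher and 0 to 6 lower, the 6 being without KO replicate 2. The replicate numbers share only a number (correlation of deviations −0.052), and the block left the median at −0.017.

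The median log2 fold change was 0.101 with no TMM, 0.087 per covered kb, −0.034 with islands in at least 2 libraries, −0.002 with at least 50 reads, −0.006 with autosomes only, −0.0001 with islands of at least 100 reads, and −0.042 to 0.016 without 1 library. The medians of all regions were 0.117 with no TMM and 0.109 per covered kb. Fitted per covered kb, 8 of the 10 largest differences had another sign, each with an adjusted p of 0.997 and all but Aspg between −0.16 and 0.26, around that setting's median over all regions. They were 0.11 at Lmod1, 0.74 at Aspg, 0.10 at Amotl1, 0.26 at Bsnd, −0.10 at Zfp334 and Zfp663, −0.02 at Skor2, −0.16 at Cntfr and −0.03 at Arhgef10l. This setting divides by the covered length, which moved with the reads. The number of regions chosen stayed within 1.5 times of 2253, from 1650 to 2651. Those meeting UTX were 367 with either library and 5 with islands of at least 50 reads. The difference in share of reads was 0.125, and that in islands per region 0.000303 with islands of at least 100 reads. Without 1 library, the difference was 0.437 to 2.78 percentage points in the share of reads, −3.25 to −0.252 Mb in covered length and −0.126 to −0.0282 in islands per region. Causes of the other shifts were not tested. With 2 libraries per genotype, changes under 2-fold were often below what the intervals could show.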
